A study of Mus musculus with 8 samples.

Results

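Windows with excess Wdr5 reads are stretches of 1 kb of the mouse genome in which the mean read level of both Wdr5 ChIP-seq libraries was well above the mean of the other libraries of the same study. A window was a member when each Wdr5 library had at least 5 reads in it and the mean Wdr5 level was at least 3 times the level of the other 6 libraries. Levels were read counts scaled by library size (CPM), and 0.1 CPM was added to the mean of the other 6 before the ratio was taken. The rule found 1205 windows of 2639019 on the 19 autosomes and X. The members were thus chosen on the Wdr5 excess itself, so their Wdr5 levels and ratios are given as a description with no test.

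The study mapped PHF20 and Wdr5 in mouse cells of C57BL/6 background by chromatin immunoprecipitation followed by sequencing. The 8 libraries were 2 each of a control, PHF20 ChIP, Wdr5 ChIP and RNA polymerase II (Pol II) ChIP. The series describes embryonic stem cells, the protocol mouse embryonic and induced pluripotent stem cells grown with LIF on irradiated feeder cells, and the label of each sample neural progenitors derived from embryonic stem cells. The state of the cells was therefore not settled from the labels, and whether feeder cells were removed before cross-linking is not stated there. The protocol mentions both input DNA and IgG, and the labels do not say which of them the control is. Nothing states that the 2 libraries of a group came from separate cultures, so the spread between them may be technical.

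Wdr5 is a WD-repeat scaffold protein. It is a core subunit of the SET1 and MLL complexes, which methylate histone H3 at promoters of transcribed genes, and it is also a subunit of the NSL acetyltransferase complex, to which PHF20 belongs. In embryonic stem cells it is known for its part in self-renewal. Pol II transcribes the protein-coding genes and is found at their promoters. Windows are named here by their position on the mm9 build, because no gene annotation of that build was used. Distance to transcription start sites, gene classes and the sequence of the windows were not analysed here.

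The libraries held 2909981 to 5474884 reads of 44 bp. After reads with the same start were counted once, 2260567 to 4600398 remained on the autosomes and X, with 3687023 and 2586510 in Wdr5 replicates 1 and 2. The mean window held 0.379 CPM, so a member window with 5 reads per Wdr5 library rests on few reads. Control replicate 1 had the largest share of its reads on X, 4.22% against 2.59% to 3.43% in the others, and counts that change without it are given both ways.

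The Wdr5 pair gave more windows than the other pairs of the same target under the same rule. It had 1205, against 757 for Pol II, 737 for PHF20 and 255 for control. Without control replicate 1 the Wdr5 pair gave 1022, the Pol II pair 611 and the PHF20 pair 662. As a share of the windows with at least 5 reads in both libraries of a pair, however, the Wdr5 pair was not the highest. The share was 20.1% for Wdr5 (1205 of 6000), 22.3% for Pol II (757 of 3392), 13.5% for PHF20 (737 of 5452) and 9.89% for control (255 of 2578). When each library was thinned to 2260567 reads, in 1 random draw, the Pol II pair gave 422 windows and the Wdr5 pair 329. PHF20 then gave 130 and control 33. The total number of member windows thus did not set the Wdr5 pair above the Pol II pair at equal depth.

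Most members lay at the lower edge of the rule. In 912 of the 1205 the lower Wdr5 library held exactly 5 reads, in 240 it held 6 or 7, and in 53 it held 8 or more. The median ratio of Wdr5 to the other libraries was 3.66 over the members, against 3.69 for Pol II, 3.59 for PHF20 and 3.77 for control over their own windows. In 1107 of the 1205 windows both Wdr5 libraries lay above each of the other 6, which was so in 41.5% of the 6000 windows with at least 5 reads in both. For the other pairs, the share of such windows was 46.4% for Pol II, 37.9% for PHF20 and 16.4% for control. The members' count follows in large part from the rule, and nothing is read from it. The 3 members closest to the threshold were on chromosomes 12 and 8, starting at 86511001, 97902001 and 120357001, with 5 and 7, 5 and 5, and 5 and 7 Wdr5 reads and ratios of 3.002 to 3.003. The 3 windows just below it, on chromosome 15 at 79295001 and 101949001 and on chromosome 6 at 127842001, had 5 or 6 reads per Wdr5 library and ratios of 2.999. Windows on either side of the threshold were alike in their reads.

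With libraries at their own depth, the pairs came apart as more reads were required. With at least 8 reads in each library of the pair, the Wdr5 pair gave 53 of the 1005 windows with that many reads. This minimum was singled out after the counts at all minimums had been seen. PHF20 gave 4 of 1112, and 2 of the 4 adjoined each other. Pol II gave 3 of 865 and control 2 of 819. With at least 10 reads the counts were 27 for Wdr5, 2 for PHF20 and 0 for Pol II and control. Without control replicate 1 the Wdr5 count at 8 reads was 50 and that of Pol II 1, and without control replicate 2 the Wdr5 count was 53. At equal depth the counts at 8 reads were 16 of 652 for Wdr5, 2 of 672 for PHF20, 1 of 740 for Pol II and 1 of 525 for control. With at least 10 reads at equal depth they were 5 for Wdr5, 2 for PHF20 and 0 for Pol II and control. With at least 12 reads at equal depth Wdr5 and PHF20 had 2 each. When every deposited read was counted, duplicates included, the order at 8 reads was lost: the Pol II pair gave 113 windows with at least 8 reads and the Wdr5 pair 81. In windows with at most 50 reads per library, Pol II replicate 2 held 1.31 reads per distinct start and the Wdr5 libraries 1.05 and 1.09. The part of duplicates in the Pol II count was not tested. Of the 53 Wdr5 windows, 50 were kept with every read counted, 26 against the highest of the other 6 libraries and 15 at equal depth. Of all 1205 members, 962 were kept with every read counted, 115 against the highest other library and 208 at equal depth.

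**Figure D1:**
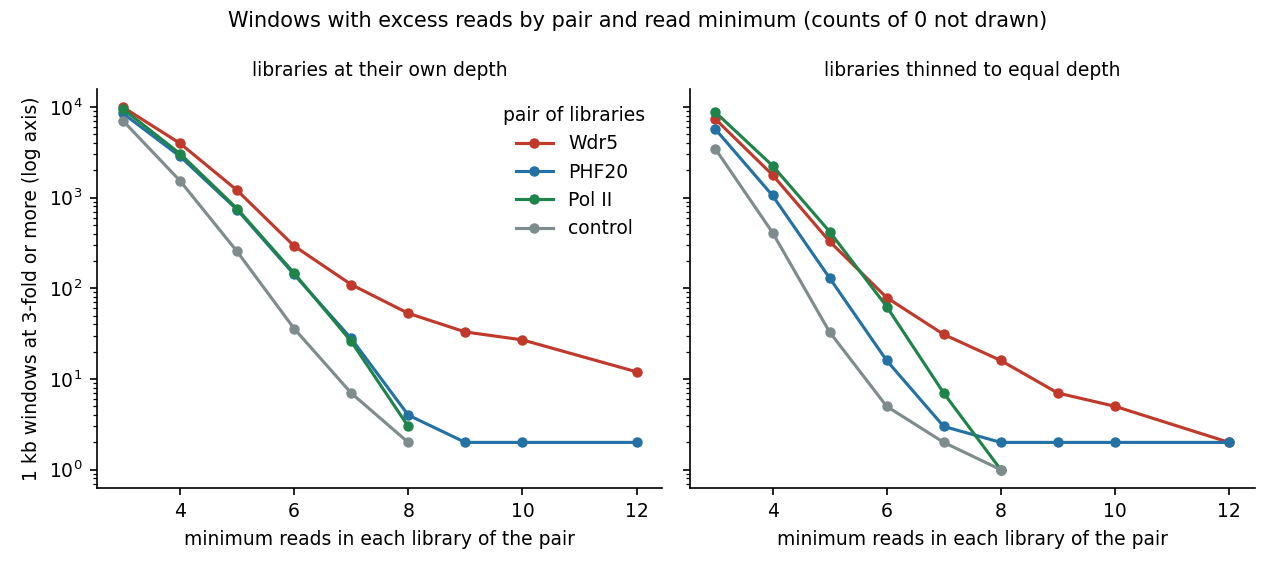
Number of 1 kb windows (log axis) that met the 3-fold rule, by the minimum number of reads required in each library of a pair (x axis), for the Wdr5, PHF20, Pol II and control pairs, with libraries at their own depth (left) and thinned to equal depth (right). At 5 reads Wdr5 has 1205 windows and Pol II 757 (329 and 422 at equal depth), and at 8 reads the Wdr5 pair has 53 windows (16 at equal depth) and no other pair has more than 4.

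In the 53 windows with at least 8 reads, Wdr5 replicate 1 held 8 to 21 reads and Wdr5 replicate 2 held 8 to 19, with a median of 10 in each. Control replicates 1 and 2 held 0 to 5 reads each, with a median of 1. PHF20 replicate 1 held 0 to 4 and PHF20 replicate 2 held 0 to 5, with a median of 2 in each. Pol II replicate 1 held 0 to 6 with a median of 2, and Pol II replicate 2 held 0 to 5 with a median of 1. The 2 Wdr5 libraries lay above each of the other 6 in all 53 windows, a description that the rule largely fixed, beside 10.1% of all windows with at least 8 reads in both. That share was 7.17% for the Pol II pair, 4.32% for PHF20 and 2.2% for control. The ratio of Wdr5 to the others ran from 3.15 to 24.8, with a median of 5.34, and 33 of the 53 had a ratio of at least 5. Control replicates 1 and 2 held no read in 17 and 9 of the 53. PHF20 replicates 1 and 2 held none in 7 and 6, and Pol II replicates 1 and 2 none in 7 and 19.

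**Figure D2:**
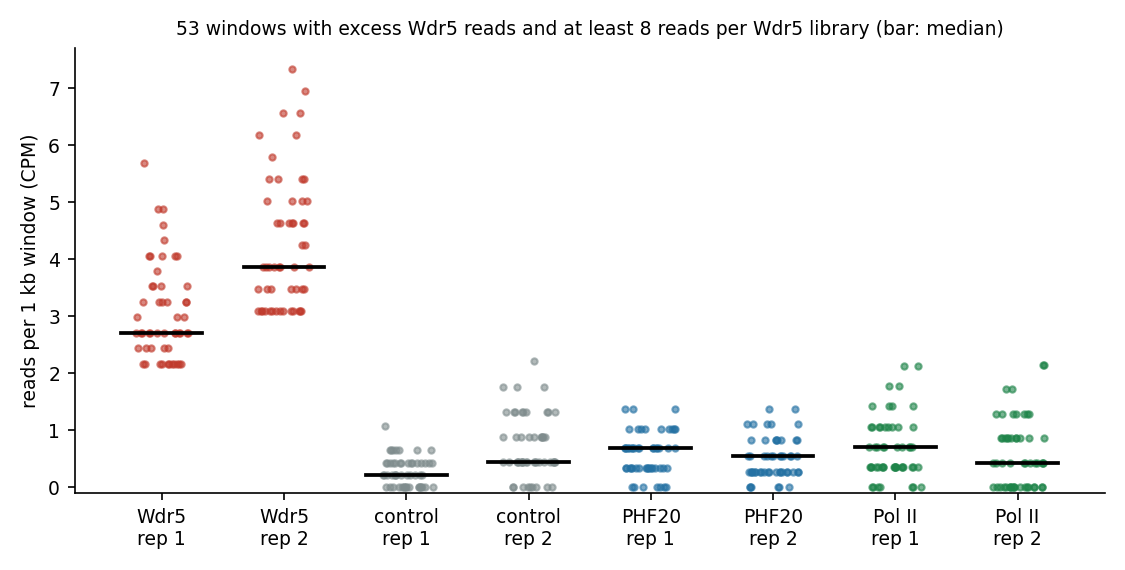
Reads in CPM (y axis) in each of the 53 windows with at least 8 reads per Wdr5 library, 1 point per window, in the 8 libraries (x axis), with the median as a bar. The windows were chosen for high Wdr5 reads, with medians of 10 reads in both Wdr5 libraries and 1 or 2 in each of the others.

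The member with the largest ratio, 24.8, was on chromosome 2 from 158187001 to 158188000. It held 15 and 17 reads in Wdr5 replicates 1 and 2, 2 in PHF20 replicate 1, and 0 in PHF20 replicate 2, both controls and both Pol II libraries. At least 80% of its Wdr5 reads had their midpoints in a stretch of 246 bp, from 158187008 to 158187253. The median read midpoints of the 2 Wdr5 libraries were 75 bp apart, so both libraries piled up at the same end of the window.

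Second in ratio, at 14.9, came the window at 85402001 to 85403000 on chromosome 6. The Wdr5 libraries held 12 and 13 reads, PHF20 replicate 2 and both Pol II libraries 1 each, and the controls and PHF20 replicate 1 none. The medians of the 2 Wdr5 libraries, at 85402167 and 85402174, were 7 bp apart. The window on the X chromosome from 131120001 to 131121000 (ratio 11.5) held 12 and 8 Wdr5 reads, 1 each in control replicate 2 and both PHF20 libraries, and 0 elsewhere.

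On chromosome 4 the window from 130219001 to 130220000 (ratio 10.2) held 12 Wdr5 reads in each replicate, 3 and 1 in the controls, 0 and 1 in PHF20 and 1 and 0 in Pol II. A second window on chromosome 2, from 26766001 to 26767000 (ratio 10.03), held 13 and 12 Wdr5 reads, 2 and 1 in the controls, 2 and 1 in PHF20 and none in Pol II. In each of these 5 windows, the lower Wdr5 library held at least 4 times the reads of the highest other library.

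The other 7 of the 12 members with the largest ratios had a lower Wdr5 library of only 5 or 6 reads. They were on chromosome 17 from 24551001 to 24552000 (6 and 13 Wdr5 reads), chromosome 1 from 174149001 (6 and 5), chromosome 8 from 3393001 (6 and 6), chromosome 10 from 127472001 (6 and 9), chromosome 6 from 91695001 (8 and 6), chromosome 2 from 157666001 (6 and 5) and chromosome 14 from 30619001 (5 and 5). The other 6 libraries held 1 to 3 reads in total in each. Their ratios of 9.47 to 13.3 rest on these few reads. In the chromosome 14 window the Wdr5 medians were 395 bp apart. In the chromosome 10 window at least 80% of the reads lay within 152 bp.

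Several windows with smaller ratios held as many Wdr5 reads, and are named here after their values were seen. On chromosome 7 from 52973001 to 52974000 the Wdr5 libraries held 15 and 16 reads and the others 0 to 3. On chromosome 15 from 76734001 to 76735000 they held 18 and 14, beside 1 and 0 in control, 2 and 4 in PHF20 and 2 and 0 in Pol II. On chromosome 17 from 34092001 to 34093000 they held 15 and 14, with medians 12 bp apart, and Pol II held 5 and 2, PHF20 1 and 1 and control 0 and 0. A pair of adjoining windows on the same chromosome, from 34255001 to 34257000, were both members with at least 8 reads. The first held 8 and 9 Wdr5 reads beside 0 to 3 in the other libraries, and the second 9 and 12 beside 0 to 2. They were the only adjoining windows among the 53.

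Within the windows, the position of the reads was not used by the rule. The 2 Wdr5 libraries placed their reads close together in the 53 windows, with a median of 53.0 bp between their median midpoints (quartiles 26.5 and 106). In 39 of the 53 the distance was at most 100 bp. With a minimum of 7 reads in place of 8 the median was 81.5 bp, over 110 windows. In 600 other windows with 8 to 25 reads per Wdr5 library but no excess the median distance was 84.5 bp (quartiles 17.4 and 188), and 53.8% were within 100 bp, against 73.6% of the 53. The reads of the 53 windows were also gathered more tightly, with a median standard deviation of their midpoints of 199.9 bp, against 261 bp in those 600. The quartiles of the distance overlap, so a single window cannot be placed in either kind by it. The 3 Pol II windows with at least 8 reads had a median of 42.5 bp.

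The members with few reads did not show this. Where the lower Wdr5 library held exactly 5 reads, the median distance was 186 bp. It was 174 bp in windows without excess whose lower Wdr5 library also held exactly 5. It was 178 bp in the excess windows of Pol II with exactly 5 reads, 184 bp in the PHF20 windows and 224 bp in the control windows. The standard deviation of the midpoints was 279.9 bp for these Wdr5 members and 278.9 bp without excess. In the 240 members with 6 or 7 reads the median distance was 125 bp, against 139 bp without excess and 167 bp and 163 bp in the PHF20 and Pol II windows. A median of fewer reads is less exact, so windows are set side by side by the reads in their lower library. The higher library was not matched, and could hold up to 25 reads in the windows without excess.

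**Figure D3:**
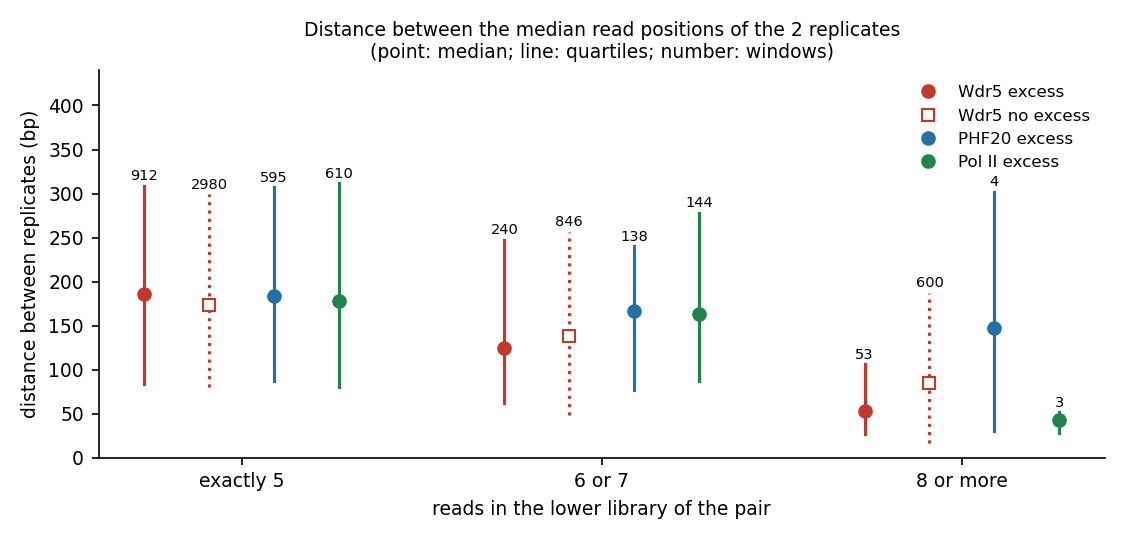
Distance in bp (y axis) between the median read positions of the 2 replicates of a pair, by the reads in the lower library (x axis), for Wdr5, PHF20 and Pol II windows with excess and Wdr5 windows without it. Points are medians, lines run between the quartiles and the numbers count windows. The 53 Wdr5 windows with 8 or more reads have a median of 53.0 bp, and the kinds with exactly 5 reads lie between 174 and 186 bp.

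When each of the 53 windows was centred on the median position in 1 Wdr5 library, the reads of the other formed a narrow rise around that centre. With the centre from replicate 1, replicate 2 held 246 reads in the central 200 bp and 221 in the flanks 500 to 1500 bp away on both sides, a ratio of 11.1 per base (95% exact Poisson interval 9.78 to 12.6). With the centre from replicate 2, replicate 1 held 272 and 244 reads, a ratio of 11.1 (9.86 to 12.6). The other 6 libraries stood at 0.97 and 0.77 of their flanks around the same centres. Replicate 2 fell from 0.94 CPM per 100 bp just right of the centre to 0.11 CPM at 500 to 600 bp.

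Both Wdr5 libraries were required to hold at least 8 reads in these windows, so part of this rise follows from the choice, as does the low level of the other 6. The size of that part was not tested. With at least 8 reads the other pairs had few windows. The ratios were 9.17 and 3.13 over the 3 windows of Pol II (intervals 4.58 to 16.4 and 1.01 to 7.29). They were 3.72 and 3.17 over the 4 of PHF20 and 1.11 and 0.31 over the 2 of control. Of the 4 PHF20 windows 2 adjoined each other, so the flanks of each took in part of the other. How far this lowered the PHF20 ratios was not tested. The 4 windows held 303 and 308 reads in PHF20 replicates 1 and 2. Among all PHF20 windows with excess, the largest ratio to the other 6 libraries was 93.97, against 24.8 for Wdr5. With exactly 5 reads in the lower library, where fewer reads were required, the ratios were 2.70 and 2.63 for Wdr5, 3.51 and 3.04 for Pol II, 2.78 and 3.01 for PHF20 and 3.8 and 2.28 for control. The Wdr5 members with 6 or 7 reads stood at 3.45 and 3.46, beside 4.07 and 3.12 for Pol II and 3.29 and 3.75 for PHF20. The intervals cover the counting error of the central reads only and take the flank reads as exact. The flanks of the 3 Pol II windows held only 12 and 16 reads, so their intervals are too narrow.

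**Figure D4:**
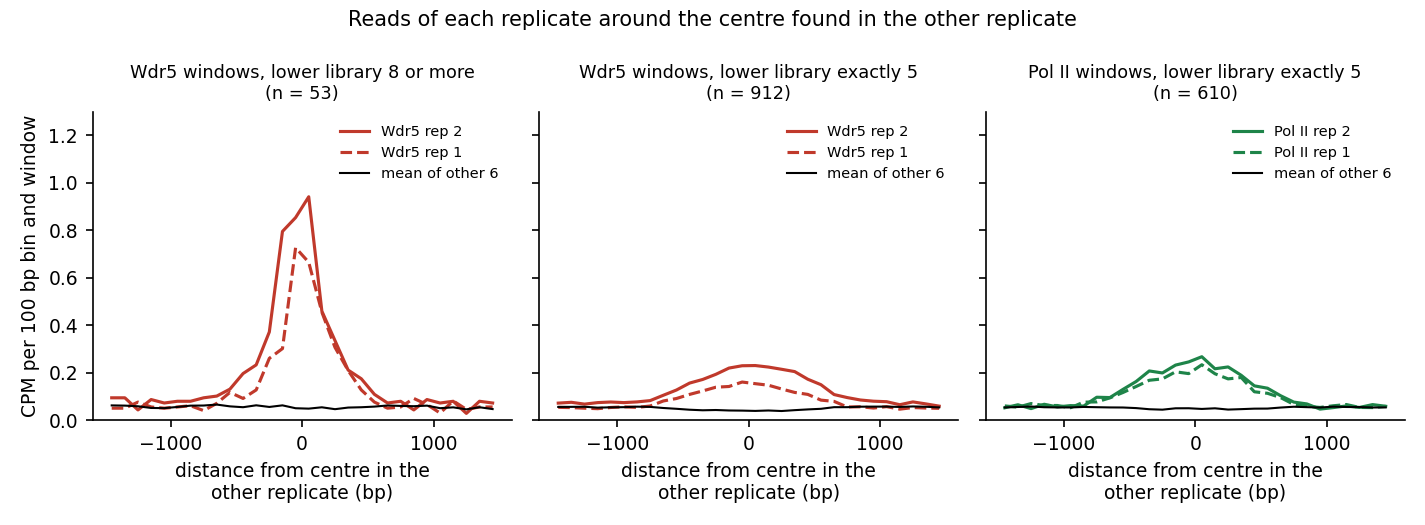
Reads in CPM per 100 bp bin and window (y axis) against the distance from a centre found in the other replicate (x axis), for the replicate that did not give the centre (coloured) and the mean of the 6 libraries of the other groups (black). The 53 Wdr5 windows with 8 or more reads show a rise to 0.94 and 0.73 CPM within 100 bp of the centre, while Wdr5 and Pol II windows with exactly 5 reads show a low, broad one. Reads in both replicates were required in every window shown.

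The windows next to the members were compared with their own level 5 to 25 kb away, leaving out neighbours that were members themselves. Windows with more than 50 reads in any library were left out of that level but not of the adjoining windows. Members were kept in that level. Beside the 53, 4 of 106 adjoining windows were members, and the other 102 held 245 and 223 Wdr5 reads. Relative to the level 5 to 25 kb away, replicate 1 stood at 1.19 (95% exact Poisson interval 1.04 to 1.35) and replicate 2 at 1.14 (0.999 to 1.3), an interval that includes 1. With the 4 members counted the ratios were 1.31 and 1.26. The other 6 libraries stood between 0.88 and 1.11 beside the 53, each with an interval that includes 1. Beside all 1205 members the Wdr5 ratios were 1.05 (1.02 to 1.08) and 1.09 (1.06 to 1.12), and those of the others ran from 0.99 to 1.07. Beside their own windows the other pairs stood at 1.06 and 0.99 for PHF20, 1.09 and 1.05 for Pol II and 1.38 and 1.01 for control, and the Wdr5 ratios over all members lay within that range. How much of these ratios was a pile-up cut by the window edge was not tested.

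The members lay in stretches where most libraries held more reads than the genome mean of 0.379 CPM. The levels 5 to 25 kb away again left out windows with more than 50 reads in any library, which the genome mean includes. At that distance from the members, control replicate 2, both PHF20, both Wdr5 and both Pol II libraries held 0.51 to 0.71 CPM. Control replicate 1 held 0.38 CPM there. The surroundings of the Pol II windows were much alike, at 0.50 to 0.68 CPM in those 7 libraries and 0.39 CPM in control replicate 1. Around the PHF20 windows the 7 libraries held 0.48 to 0.57 CPM. Dense surroundings therefore were not particular to the Wdr5 windows.

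The members were spread over all 20 chromosomes, and so were the 53 with at least 8 reads. Per 1000 windows, chromosome 11 had the most members (0.80), followed by chromosome 17 (0.75), chromosome 8 (0.67), chromosome 4 (0.66) and chromosome 9 (0.63). Chromosomes 12 and 13 had the fewest among the autosomes, at 0.25 and 0.26. The X chromosome had 6 members, or 0.036 per 1000 windows. The Pol II windows were also most frequent on chromosomes 17 and 11, at 0.45 and 0.43, and had 5 on X. Of the windows on X with at least 5 reads in both Wdr5 libraries 3.31% (6 of 181) were members, against 13.1% to 30.4% on the autosomes. On X that share was 2.53% for Pol II, 2.71% for PHF20 and 2.45% for control. A low share on X was thus found in every pair. Among the autosomes the Wdr5 share did not keep the order found per 1000 windows. It was highest on chromosomes 10 (30.4%) and 3 (29.5%), beside 20.1% over all chromosomes. Chromosomes 11, 17, 8, 4 and 9 had 21.995%, 20.8%, 14.4%, 21.98% and 24%, in that order. The frequency per 1000 windows therefore also depends on how many windows reached 5 reads, and does not by itself mark a chromosome as rich in Wdr5 excess. Of the 6 members on X, 2 had at least 8 reads. Chromosomes 2, 4, 7 and 17 held the most of the 53, with 7, 5, 5 and 5.

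Members lay near each other more often than the windows of other pairs did, as their larger number would also give. Of the 1205, 272 (22.6%) had another member within 100 kb and 10 adjoined another. The share within 100 kb was 18% of the Pol II windows, 9.09% of the PHF20 windows and 5.49% of the control windows. Of the 53, only the adjoining pair on chromosome 17 lay within 100 kb of another.

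**Figure D5:**
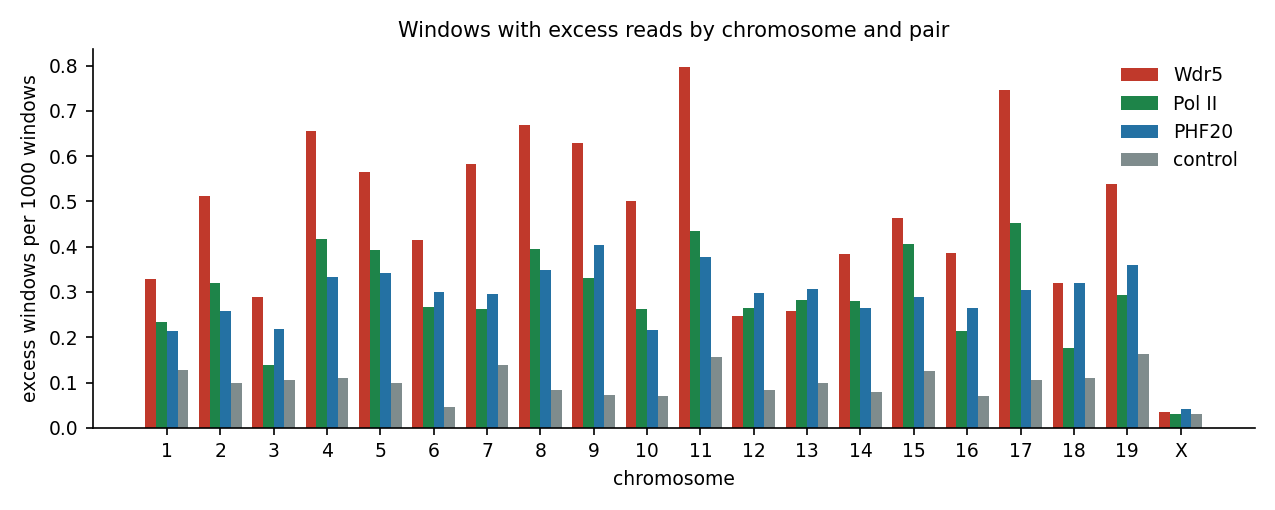
Windows with excess reads per 1000 windows of 1 kb (y axis, from 0) on each chromosome (x axis), for the Wdr5, Pol II, PHF20 and control pairs. Wdr5 windows are most frequent on chromosomes 11 and 17, at 0.80 and 0.75, and every pair is near 0 on X, where Wdr5 has 0.036.

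PHF20 and Pol II were compared with control at the members, a contrast the rule did not use directly. No member was called for either target (limma-trend with Benjamini-Hochberg adjustment over 1183894 windows of at least 10 reads in all, which every member passed with its Wdr5 reads). The rule demands a low mean over these same 6 libraries and so limits how far they can differ, and the lack of calls does not show that they were equal. For PHF20, 0 members were called, beside 0.000169% of all windows tested, 2 in number. For Pol II, 0 members were called, beside 0% of all windows. At an unadjusted p under 0.05, limma-trend had 24 members for PHF20 (1.99%, of which 20 were higher) beside 3.19% of all windows, and 38 for Pol II (3.15%, of which 32 were higher) beside 5.18%. The voom variant of limma also called 0 members in either comparison. The members' share was below that of all windows in both comparisons, and above it with a prior count of 0.5 instead of 2, at 4.98% beside 3.37% for PHF20 and 7.55% beside 5.02% for Pol II. Members reached 10 reads with their Wdr5 reads, and the rule kept the other 6 libraries low. These shares, and the counts of higher members, therefore cannot show how members differ from all windows.

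The median log2 fold change over the members was 0.15 for PHF20 and 0.12 for Pol II, against 0.08 and 0.09 over all windows. Over the 53 it was 0.09 for PHF20, higher than control in 29, and 0.16 for Pol II, higher in 31. Without control replicate 1 the medians over the 53 turned to -0.18 and -0.13, beside 0 and -0.03 over all windows. Without control replicate 2 they were 0.38 and 0.34, beside 0.16 and 0.19. The voom variant gave 0.41 and 0.59, beside 0.20 and 0.32. The direction at these windows therefore depended on which control library was used, and the medians over all windows moved the same way. Among the 53, the largest PHF20 difference was on chromosome 4 from 116828001 to 116829000, a window named after its values were seen. It held 0 reads in both controls, 3 and 5 in PHF20, 10 and 19 in Wdr5 and 1 in each Pol II library. PHF20 differed from control there by 1.52 on the log2 scale, SE 0.60, with an adjusted p of 0.993 in limma-trend. A comparison of 2 with 2 libraries at 1 window cannot reach an exact two-sided permutation p below 0.333, so none is given.

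The other libraries were also set against their own surroundings in the 53 windows. PHF20 stood at 0.94 in both replicates (95% exact Poisson intervals 0.76 to 1.16 and 0.76 to 1.15), and Pol II at 1.11 (0.90 to 1.34) and 0.94 (0.74 to 1.19). Control stood at 0.71 (0.55 to 0.90) in replicate 1, below 1, and at 1.09 (0.87 to 1.35) in replicate 2. The rule favours windows where these libraries are low, so their levels there are a description, and over all 1205 members they stood at 0.70 to 0.81. The Wdr5 libraries, on which the windows were chosen, stood at 5.59 and 5.80.

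Windows were also picked in 1 Wdr5 library alone and read in the other, which took no part in the choice. The 19502 windows picked in replicate 1, with at least 5 reads and the same 3-fold rule, held 1.62 times the level of the 6 libraries of the other groups in replicate 2 (95% exact Poisson interval 1.6 to 1.64). The 30584 picked in replicate 2 held 1.18 times that level in replicate 1 (1.17 to 1.19). The same ratios were 1.46 and 1.3 for Pol II, 1.27 and 1.54 for PHF20 and 1.24 and 0.75 for control. The 6 reference libraries took part in the choice and are low by it, which raises the ratio in every pair. The 2 Wdr5 ratios were the highest and the second lowest of the 8, so the Wdr5 pair did not stand apart by this measure.

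With at least 8 reads in the picking library, 117 of 1328 windows (8.81%) picked in Wdr5 replicate 1 also had at least 5 reads in replicate 2. For those picked in Wdr5 replicate 2 it was 294 of 2716 (10.8%). The share was 4.68% and 6.93% for Pol II, 6.31% and 5.48% for PHF20 and 0.74% and 4.37% for control. With at least 5 reads in the picking library the Wdr5 shares were 3.02% and 6.43%. Pol II then had 2.69% and 4.67%, PHF20 4.79% and 2.60% and control 0.17% and 3.85%. With every read counted, again from 5 reads, Wdr5 had 4.29% and 7.58% and Pol II 8.40% and 6.48%. The order of the pairs in this share therefore changed with the setting. Depth differs between these libraries and bears on the shares, and its part was not tested.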

How the data were processed

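The authors deposited 1 file per library with the interval of each aligned read on mm9, in 3 columns without strand. The submitters' processing notes name CASAVA 1.6, FastQC and Bowtie 0.12.7 without roles, and no settings were found in the labels. All counts were made here. Each start position on a chromosome was counted once, and reads were assigned by midpoint, 22 bp from the start, to windows of 1 kb. Library size was the number of these reads on the autosomes and X. Positions count from 1.

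The members, the read minimum of 8 and the gene lists were chosen with earlier results of these data known. Gene lists and distance to start sites had been planned and were not used, because they need an mm9 annotation and the tables used here are of GRCm38. Windows named are the 12 with the largest ratio and 3 on each side of the threshold. Those described as named after their values were seen are exceptions.

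PHF20 and Pol II were each compared with control by limma-trend (limma 3.58.1, R 4.3.3) on log2 CPM with a prior count of 2, all 8 libraries in 1 model with 4 residual degrees of freedom and an adjusted p under 0.05 as threshold. The rule and this fit were tested on simulated data. The outcome is not given here, so nothing about the lack of calls is drawn from it. Replicate numbers were not treated as pairs in this fit, and whether the libraries were made as pairs was not settled. Python 3.11.15 with numpy 2.4.6, pandas 2.3.3, scipy 1.17.1 and matplotlib 3.10.9 was used.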

Additional observations from a re-analysis of the deposited data

How the results depend on the processing

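The counts of windows followed the thresholds. Given in the order Wdr5, Pol II, PHF20 and control, the rule gave 1839, 3674, 1898 and 1112 windows with every read counted. A minimum of 3 reads gave 9941, 9504, 8505 and 7052, and one of 8 reads 53, 3, 4 and 2. A fold of 2 gave 3176, 1551, 2222 and 705, and a fold of 5 gave 167, 85, 83 and 48. With 0.3 CPM added the counts were 300, 233, 139 and 70. Against the highest of the other 6 libraries they were 115, 54, 33 and 17, and at equal depth 329, 422, 130 and 33. The Wdr5 pair was the highest except with every read counted and at equal depth. Shifting windows by 500 bp, size factors from 10 kb windows, and adding 0.1 CPM after multiplying by 3 left each count within 1.5 times.

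Leaving out 1 library gave 1022 to 30584 windows for Wdr5, 611 to 20831 for Pol II, 662 to 21664 for PHF20 and 262 to 51292 for control. The high ends come from leaving out a library of the pair itself (for Wdr5, 30584 without replicate 1 and 19502 without replicate 2), which ends the demand for reads in both. When the library left out belonged to another group, the Wdr5 count ran from 1022 to 1409.

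The 53 windows with at least 8 Wdr5 reads became 81 with every read counted, 33 at 5-fold, 26 against the highest other library and 16 at equal depth. With windows shifted by 500 bp there were 38, beside 7 for PHF20, 4 for Pol II and 2 for control. Minimums of 7, 9 and 10 reads gave 110, 33 and 27. Leaving out 1 library gave 50 to 2716, the latter without Wdr5 replicate 1, and 1328 without Wdr5 replicate 2. The median distance of 53.0 bp between the Wdr5 libraries ran from 51.8 to 53.0 bp when a library of another group was left out. It was 45.5 bp with shifted windows, 51 bp with at least 9 reads and 81.5 bp with at least 7. The equal-depth setting, the other reading of the 0.1 CPM and all settings for the 53 windows and the distance were chosen after seeing the data.

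The held-out ratio from Wdr5 replicate 1 to 2 was 1.69 with 8 reads, 2.51 against the highest library and 1.66 with every read counted, and from replicate 2 to 1 it was 1.03, 1.91 and 1.21. PHF20 against control called 42 windows and Pol II 26 with every read counted. Without 1 library they called 2 to 6 and 0 to 16, the most without control replicate 2. With the replicate block they called 2 and 0, as without it. Replicate differences correlated between groups at -0.063 to 0.11, and the numbers were not taken as pairs. With few reads per window such correlations cannot exclude pairing. No member was called under any of these settings. The ratios of the 12 windows with the largest ratio ran from 2.85 to 53.2 over the settings. These windows were chosen for their ratio on the same reads, so values above 1 follow from the choice. The planned share of windows near start sites was not run. The cause of these changes was not tested. Most members rest on 5 or 6 reads in a library, and this depth limits what single windows show.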

Other observations

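Duplicates in the member windows were like those elsewhere. The Wdr5 libraries held 1.05 and 1.09 reads per distinct start over the 1205 members and 1.07 and 1.06 over the 53 with at least 8 reads, beside 1.05 and 1.09 over all windows with at most 50 reads per library. Duplicates were removed before the windows were chosen.

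A window on chromosome 5 from 100858001 to 100859000 was the most compact of the 53 in span, and is named after its values were seen. Its 10 and 8 Wdr5 reads had midpoints within 294 bp, with medians 20 bp apart, and the other libraries held 0 to 3 reads.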
